A study of Setaria viridis with 32 samples.

Results

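Vacuolar and neutral invertases were followed through seed head development of *Setaria viridis*, green foxtail, a small grass used as a model for millets. They are represented by 4 loci, the vacuolar invertases *Sevir.1G004700* and *Sevir.7G191000* and the neutral invertases *Sevir.1G193400* and *Sevir.7G108800*, chosen by identifier from the 38334 loci of the count tables. The class of each comes from the study's list of 177 sugar genes, which holds 19 invertases: 2 vacuolar, 8 neutral and 9 cell wall invertases. Both vacuolar invertases of that list and 2 of its 8 neutral invertases are described, and the 6 other neutral invertases and the 9 cell wall invertases serve for comparison. The tables give identifiers and no descriptions, so the class of a locus could not be checked against sequence, and no sequence is printed. The study's authors, from protein modelling, thought *Sevir.1G004700* likelier to encode a fructosyltransferase, and the class name, the vacuolar shares included, carries that doubt.

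Invertases split sucrose into glucose and fructose, the step that makes imported sucrose available to a sink organ such as a developing grain. Vacuolar invertases work at acid pH inside the vacuole, where the hexoses they release add to the osmotic content of a cell, and their genes are known from expanding tissues of grasses. They belong to the same enzyme family as cell wall invertases and as plant fructosyltransferases, which build fructans from sucrose, and some members are hard to assign from sequence. Neutral invertases form a separate family of cytosolic and organellar enzymes with a neutral to alkaline pH optimum and are commonly present in many tissues at once. Sucrose synthase is the other enzyme that cleaves sucrose, and it yields UDP-glucose in place of glucose.

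RNA was sequenced from whole seed heads of ecotypes ME034V and A.10 at 50% seed head emergence (50% SH), at anthesis and at 8 and 16 days after anthesis (DAA), which the sample labels call days after flowering. Each of the 8 groups had 4 replicates, each a pool of 4 plants, so that there were 32 libraries. Plants of both ecotypes grew in a growth chamber, and the labels name no treatment, transgene or mutation. A whole seed head holds stalk, bristles, glumes, florets and, after anthesis, grains with embryo and endosperm, so every value is an average over these tissues. The libraries held 4557079 to 21175874 counts (median 8178992).

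On log2 CPM (counts scaled to library size by the trimmed mean of M values, TMM), replicate 3 of ME034V at 16 DAA had the lowest Pearson r with the mean of the 3 other libraries of its group (0.955), and replicate 1 of A.10 at 8 DAA was next (0.975). The other 30 libraries had an r of 0.980 or more. As a check of stage, on CPM relative to plain library totals, which is the CPM given from here on, the 11 starch synthase loci of the study's list summed to 1900 to 3724 CPM in ME034V and 3475 to 5040 CPM in A.10 over the libraries of 8 and 16 DAA. They summed to 454 to 668 CPM in ME034V and 517 to 622 CPM in A.10 over those of 50% SH and anthesis. The lowest of the late values within each ecotype belonged to the 2 libraries that stood apart. Results whose call or direction changes without either library are given with and without it.

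*Sevir.1G004700*, the more abundant vacuolar invertase, lies on chromosome 1 of the v2.1 assembly from 288057 to 291620 on the plus strand, 3564 bp with introns. In ME034V its log2 FPKM as deposited (fragments per kilobase of locus, relative to library size, on a log2 scale) was 3.82, 4.48, 4.59 and 3.99 in replicates 1 to 4 at 50% SH, and 5.99, 5.79, 5.63 and 4.95 at anthesis. It was 4.27, 3.55, 3.21 and 3.89 at 8 DAA and 2.09, 3.74, 3.13 and 2.93 at 16 DAA. Every anthesis library lay above every library of the other stages, and the libraries of 8 and 16 DAA overlapped.

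In A.10, *Sevir.1G004700* had a log2 FPKM of 4.46, 4.35, 3.93 and 4.08 at 50% SH and of 5.85, 5.83, 6.10 and 5.85 at anthesis. It was 3.70, 2.45, 1.95 and 1.22 at 8 DAA and 0.02, 0.83, -0.32 and -0.19 at 16 DAA. No 2 successive stages overlapped. The 8 DAA libraries were the most spread of all groups of this gene, with replicate 1 the highest of them (mean 2.33 ± 1.04, SD, n = 4). In ME034V the mean of 16 DAA stood at percentile 67.3 of the 23713 loci in the table, against percentile 96.2 at anthesis. In A.10 it stood at percentile 19.1 of 23582 loci at 16 DAA, against percentile 97.2 at anthesis.

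*Sevir.7G191000*, the second vacuolar invertase, lies on chromosome 7 from 24988229 to 24993497 on the plus strand, 5269 bp with introns. In ME034V its log2 FPKM was 1.69, 2.04, 2.44 and 2.36 at 50% SH and 3.03, 3.04, 3.05 and 2.86 at anthesis. It was 1.72, 1.12, 2.16 and 1.87 at 8 DAA and 0.73, 1.49, 2.80 and 1.73 at 16 DAA. Anthesis was again the highest stage, and the 16 DAA libraries ranged more widely (SD 0.86) than those of the 3 other stages, with replicate 3, a library that stood apart, at the top.

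In A.10, *Sevir.7G191000* had a log2 FPKM of 2.45, 2.52, 2.22 and 2.70 at 50% SH and of 2.95, 2.95, 3.37 and 3.09 at anthesis. It was 1.92, 1.23, 1.89 and 1.6 at 8 DAA and 0.96, 0.90, 1.56 and 1.46 at 16 DAA. The libraries of anthesis lay above and those of 8 and 16 DAA below the libraries of 50% SH, while 8 and 16 DAA overlapped. Its stage means lay between percentiles 34.6 and 70.4 of the table, in the middle of the range of measured genes.

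*Sevir.1G193400*, the more abundant of the neutral invertases described, lies on chromosome 1 from 27053067 to 27057044 on the minus strand, 3978 bp with introns. In ME034V its log2 FPKM was 4.82, 4.65, 4.60 and 4.58 at 50% SH and 4.06, 4.49, 4.43 and 4.60 at anthesis. It was 4.56, 4.52, 4.34 and 4.15 at 8 DAA and 4.57, 4.52, 4.55 and 4.67 at 16 DAA. The libraries of 8 DAA lay just below those of 50% SH, all other pairs of stages overlapped, and the stage means covered 0.27 on the log2 scale.

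In A.10, *Sevir.1G193400* had a log2 FPKM of 4.78, 4.82, 4.78 and 4.79 at 50% SH and of 4.51, 4.54, 4.62 and 4.62 at anthesis. It was 4.39, 4.47, 4.31 and 4.38 at 8 DAA and 4.47, 4.38, 4.34 and 4.43 at 16 DAA. These libraries hardly differed within a stage (SD 0.02 to 0.07), and their stage means covered 0.40. The gene stood between percentiles 88.9 and 92.0 in all 8 groups. By FPKM it was the most abundant of the 8 neutral invertases in each of them, with 33.9% to 46.2% of their summed FPKM by group mean. By CPM, which takes no account of length, its lead at 8 DAA over the neutral invertase *Sevir.1G182000* was small. The mean CPM was 79.8 against 79.7 in ME034V and 79.0 against 73.4 in A.10.

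*Sevir.7G108800*, a neutral invertase of low level, lies on chromosome 7 from 19425102 to 19428387 on the minus strand, 3286 bp with introns. In ME034V its log2 FPKM was 0.18, 0.65, 0.70 and 0.67 at 50% SH and 0.54, 1.41, 1.6 and 1.34 at anthesis. It was 0.40, -0.40, -0.08 and -0.15 at 8 DAA and -0.15, -0.08, 0.50 and -0.18 at 16 DAA. Replicate 1 was the lowest ME034V library at both early stages, and replicate 3 was the highest at 16 DAA.

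In A.10, *Sevir.7G108800* had a log2 FPKM of 0.25, -0.42, -0.51 and -0.64 at 50% SH and of 1.06, 0.96, 1.12 and 0.88 at anthesis. It was -1.08, -1.28, -1.65 and -1.55 at 8 DAA and -1.22, -1.79, -1.64 and -1.39 at 16 DAA. Anthesis lay above all other stages without overlap. These values rest on few reads, 6 to 14 in the A.10 libraries of 8 DAA and 6 to 18 in those of 16 DAA, against 434 or more for *Sevir.1G193400* in every library. None of the 4 loci overlaps another locus of the annotation, and their reads were counted without regard to strand. Transcripts of a neighbour that run past its annotated end were not tested for.

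**Figure D1:**
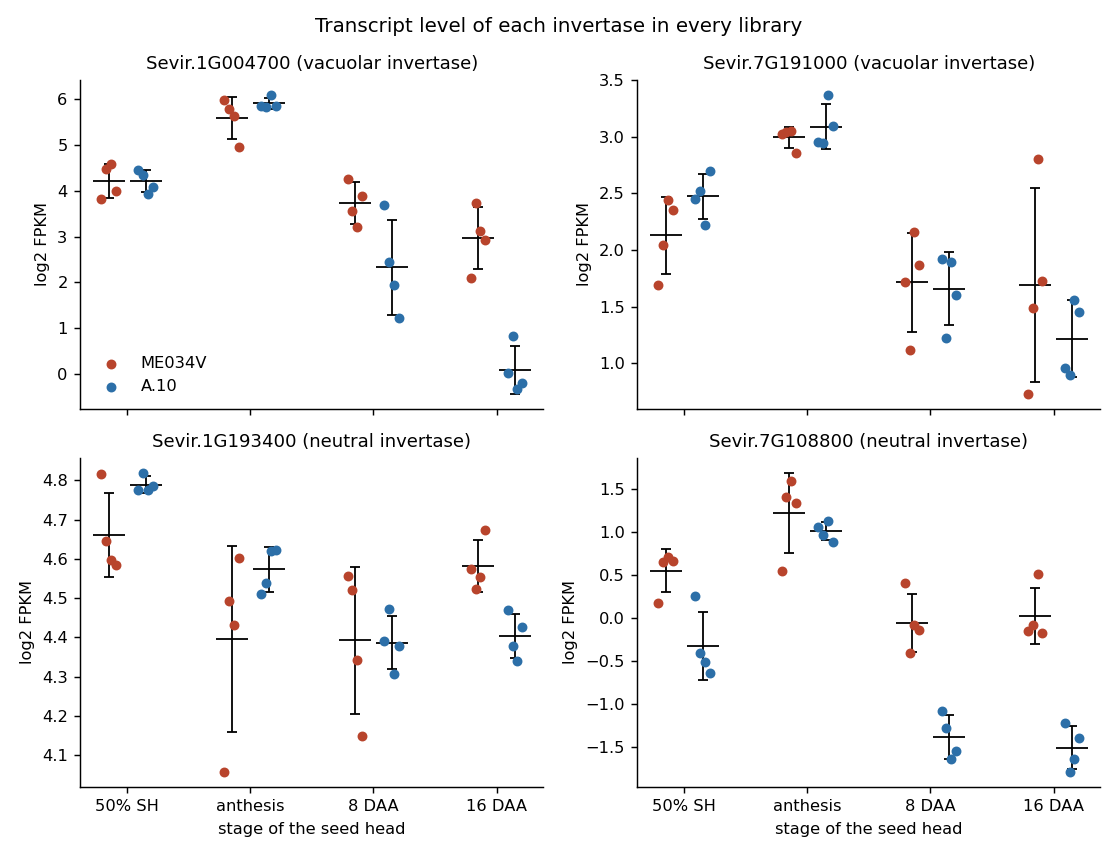
Log2 FPKM of the 4 invertases (vertical axis) at the 4 stages (horizontal axis) in ME034V (red) and A.10 (blue); points are libraries, black bars the mean and SD of 4. *Sevir.1G004700* is highest at anthesis, with means of 5.59 in ME034V and 5.91 in A.10, and the ecotypes separate at 16 DAA (2.97 and 0.09), while *Sevir.1G193400* stays between 4.06 and 4.82 in every library (each panel has its own vertical scale).

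At anthesis, compared with 50% SH, the vacuolar invertase *Sevir.1G004700* and the neutral invertase *Sevir.7G108800* rose in both ecotypes, and *Sevir.7G191000* rose in A.10 and did not pass in ME034V. Rose and fell are used of genes that passed edgeR's quasi-likelihood test at a Benjamini-Hochberg adjusted p under 0.05, with the adjustment made over every locus in the fit. In ME034V the log2 fold change of *Sevir.1G004700* was 1.39 (SE 0.30, edgeR adjusted p = 0.0031), and that of *Sevir.7G108800* was 0.75 (SE 0.24, edgeR adjusted p = 0.037). The call of *Sevir.7G108800* in ME034V was lost when any of 7 of the 8 libraries compared was left out, with log2 fold changes of 0.63 to 0.92 over all libraries left out. *Sevir.7G191000*, at 0.84 (SE 0.30, edgeR adjusted p = 0.064), and *Sevir.1G193400*, at -0.25 (SE 0.11, edgeR adjusted p = 0.14), did not pass. Without replicate 3 of ME034V at 16 DAA, *Sevir.7G191000* passed with nearly the same value (0.84, edgeR adjusted p = 0.0057), and in a fit of all 32 libraries both genes passed (edgeR adjusted p = 0.015 for *Sevir.7G191000* and 0.036 for *Sevir.1G193400*). In a bulk sample, a change in the share of cells that express a gene cannot be told apart from a change in its RNA per cell.

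In A.10, over the same step, *Sevir.1G004700* reached a 3.21-fold level (log2 fold change 1.68, SE 0.31, edgeR adjusted p = 0.00046). *Sevir.7G108800* rose by 1.29 (SE 0.21, edgeR adjusted p = 0.00012) and *Sevir.7G191000* by 0.62 (SE 0.16, edgeR adjusted p = 0.0052), while *Sevir.1G193400* fell by 0.22 (SE 0.05, edgeR adjusted p = 0.004). The calls of the last 2 genes were lost in the fit of all 32 libraries (edgeR adjusted p = 0.068 for *Sevir.7G191000* and 0.072 for *Sevir.1G193400*), where the size of both changes stayed the same. Of the 4 genes, 2 rose and 0 fell in ME034V, where 10.4% of all 24144 loci tested rose and 8.14% fell. In A.10, 3 rose and 1 fell, where 16.7% of 23984 loci rose and 17.8% fell. The median log2 fold change of the 4 genes was 0.80 in ME034V and 0.96 in A.10, against -0.03 and -0.01 over all loci tested.

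At 8 DAA, compared with anthesis, both vacuolar invertases and *Sevir.7G108800* fell in both ecotypes. *Sevir.1G004700* fell to 13.8 ± 4.32 FPKM at 8 DAA, against 49.9 ± 13.9 FPKM at anthesis, in ME034V (SD, n = 4 each). In A.10 it fell to 6.15 ± 4.72 FPKM at 8 DAA, against 60.3 ± 5.59 FPKM at anthesis (SD, n = 4 each). On the log2 scale the changes were -1.86 (SE 0.30, edgeR adjusted p = 7.9e-05) in ME034V and -3.27 (SE 0.34, edgeR adjusted p = 2.5e-07) in A.10, a 3.63-fold and a 9.68-fold lower level. Without replicate 1 of A.10 at 8 DAA, the library that stood apart, the A.10 change was -4.02.

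*Sevir.7G191000* changed by -1.24 (SE 0.31, edgeR adjusted p = 0.0033) in ME034V and by -1.43 (SE 0.16, edgeR adjusted p = 8e-07) in A.10. *Sevir.7G108800* changed by -1.37 (SE 0.25, edgeR adjusted p = 0.00027) in ME034V and by -2.57 (SE 0.24, edgeR adjusted p = 5.2e-08) in A.10. On log2(FPKM + 1), which compresses low values, this gene's A.10 change was -1.12. The abundant neutral invertase *Sevir.1G193400* was at -0.01 (SE 0.11, edgeR adjusted p = 0.95) in ME034V and fell by 0.19 (SE 0.05, edgeR adjusted p = 0.0055) in A.10, a call lost in the fit of all 32 libraries (edgeR adjusted p = 0.059).

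Thus 3 of the 4 genes fell and 0 rose in ME034V at this step, where 24.4% of all loci tested fell and 22.2% rose. In A.10 all 4 fell, where 30.4% of loci fell and 32.2% rose. Their median log2 fold change was -1.30 in ME034V and -2.0 in A.10, against 0.00 and 0.04 over all loci tested.

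At 16 DAA, compared with 8 DAA, *Sevir.1G004700* fell further in A.10, where its log2 ratio was -2.59 (SE 0.44, edgeR adjusted p = 0.00038), to 1.12 ± 0.45 FPKM at 16 DAA against 6.15 ± 4.72 FPKM at 8 DAA (SD, n = 4 each). The change was -1.89 without replicate 1 of A.10 at 8 DAA and -1.57 on log2(FPKM + 1), and the call held in both. In ME034V the log2 fold change of this gene was -0.71 (SE 0.31, edgeR adjusted p = 0.19). The 3 other genes did not pass in either ecotype, with log2 fold changes of 0.08 to 0.18 in ME034V and of -0.43 to 0.02 in A.10. Without replicate 3 of ME034V at 16 DAA, *Sevir.7G191000* was at -0.38, against 0.12 with it, and *Sevir.7G108800* at -0.12, against 0.08 with it, and neither passed. Of the 4 genes, 0 rose and 0 fell in ME034V, where 4.1% of loci rose and 2.61% fell. There, 1 of the 4 had an unadjusted p under 0.05, and DESeq2 called 0. In A.10, 0 rose and 1 fell, where 13.2% rose and 12.5% fell, and DESeq2 also called *Sevir.7G191000* (log2 fold change -0.45, adjusted p = 0.046).

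Between the ends of the series, 16 DAA against 50% SH, all 4 genes fell in A.10 and *Sevir.1G004700* alone fell in ME034V. In A.10 the log2 fold change of *Sevir.1G004700* was -4.18 (SE 0.42, edgeR adjusted p = 7.5e-08), an 18.1-fold lower level. It was -1.24 (SE 0.17, edgeR adjusted p = 3.8e-06) for *Sevir.7G191000*, -1.44 (SE 0.26, edgeR adjusted p = 7.1e-05) for *Sevir.7G108800* and -0.38 (SE 0.05, edgeR adjusted p = 3.6e-06) for *Sevir.1G193400*. On log2(FPKM + 1) the change of *Sevir.1G004700*, which had 19 to 51 reads in the A.10 libraries of 16 DAA, was -3.22. That of *Sevir.7G108800*, a gene of few reads, was -0.42. Over the same interval 34.2% of all A.10 loci tested fell and 40% rose, with a median log2 fold change of 0.09. The median of the 4 genes was -1.34.

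In ME034V, *Sevir.1G004700* fell by 1.18 (SE 0.31, edgeR adjusted p = 0.0028) between 16 DAA and 50% SH, where 30.1% of loci fell and 31.8% rose. *Sevir.7G108800*, at -0.54 (SE 0.26, edgeR adjusted p = 0.085), and *Sevir.7G191000*, at -0.28 (SE 0.31, edgeR adjusted p = 0.46), did not pass. Without replicate 3 of ME034V at 16 DAA both passed, at -0.73 (edgeR adjusted p = 0.029) for *Sevir.7G108800* and -0.78 (edgeR adjusted p = 0.01) for *Sevir.7G191000*. In that library the starch synthase loci summed to 1900 CPM, against 3475 to 3724 CPM in the 3 other ME034V libraries of 16 DAA, and the part this had in the levels of both genes was not tested.

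**Figure D2:**
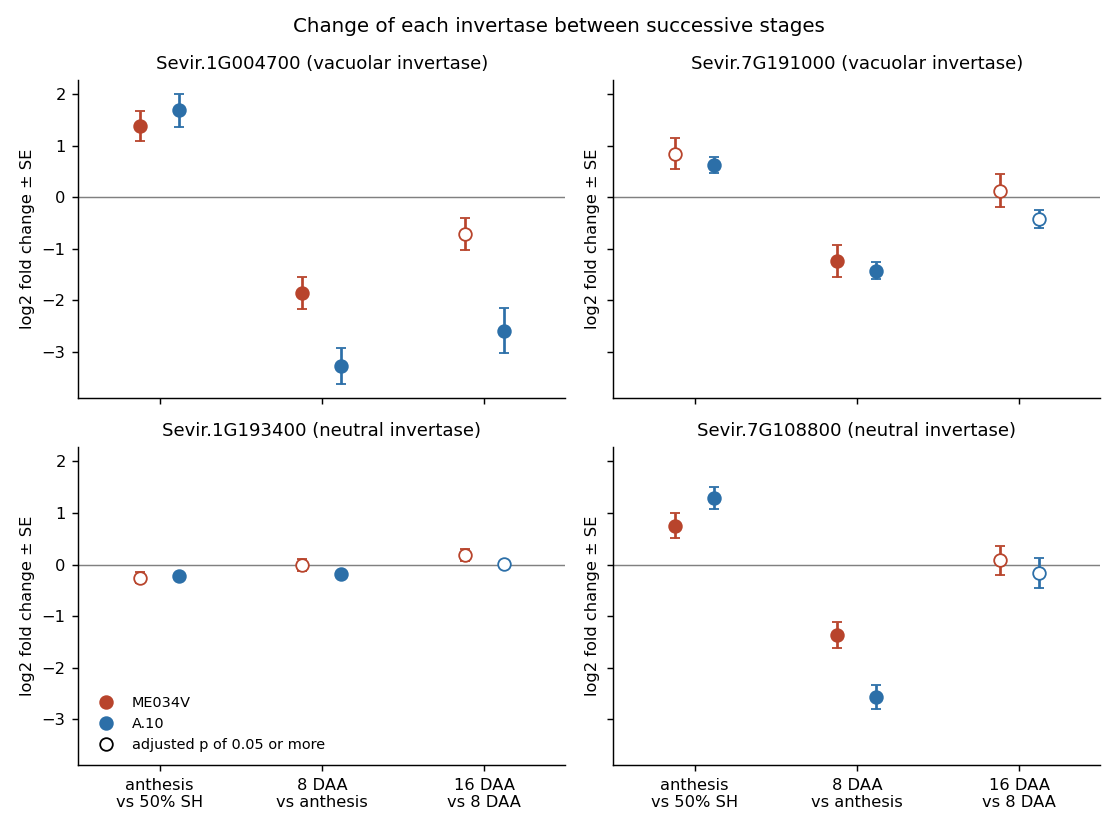
Log2 fold change with SE (vertical axis) between successive stages (horizontal axis) in ME034V (red) and A.10 (blue), later over earlier stage; open circles have an edgeR adjusted p of 0.05 or more. *Sevir.1G004700* and *Sevir.7G108800* rise at anthesis and fall at 8 DAA in both ecotypes, and the points of *Sevir.1G193400* lie between -0.25 and 0.18.

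*Sevir.1G004700* did not pass between the ecotypes up to anthesis and was higher in ME034V afterwards. In a joint fit of all 32 libraries the log2 fold change of ME034V over A.10 was -0.04 (SE 0.33, edgeR adjusted p = 0.98) at 50% SH and -0.34 (SE 0.32, edgeR adjusted p = 0.58) at anthesis. At 8 DAA it was 1.09 (SE 0.35, edgeR adjusted p = 0.023), with 65.3, 38.9, 32.4 and 48.5 CPM in ME034V against 45.8, 18.1, 12.6 and 7.53 CPM in A.10, which overlapped through replicate 1 of A.10. That call was lost when any of 5 libraries of this stage was left out, down to 0.82, and without replicate 1 of A.10 the value was 1.80 (edgeR adjusted p = 9.7e-05).

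At 16 DAA *Sevir.1G004700* had 13.5, 42.1, 27.5 and 25.3 CPM in ME034V, against 2.98, 5.62, 2.37 and 2.68 CPM in A.10. Every ME034V library was above every A.10 library. The log2 fold change was 2.96 (SE 0.43, edgeR adjusted p = 4.3e-06), a 7.77-fold higher level in ME034V, and ran from 2.67 to 3.28 with each library left out.

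*Sevir.7G108800* was the other gene with a difference between ecotypes. At 50% SH it had 3.77, 5.27, 5.42 and 5.32 CPM in ME034V, against 3.96, 2.43, 2.19 and 2 CPM in A.10, with replicate 1 of each ecotype inside the other's range. The log2 fold change of ME034V over A.10 was 0.77 (SE 0.24, edgeR adjusted p = 0.021), a call lost without any of 6 of these 8 libraries. At anthesis it was 0.23 (SE 0.21, edgeR adjusted p = 0.57).

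At 8 DAA *Sevir.7G108800* had 3.92, 2.12, 2.85 and 2.53 CPM in ME034V, against 1.32, 1.06, 0.766 and 0.837 CPM in A.10, and at 16 DAA 2.48, 2.56, 3.93 and 2.53 CPM in ME034V, against 1.04, 0.661, 0.748 and 0.944 CPM in A.10. The ecotypes did not overlap at either stage. On the log2 scale ME034V was higher by 1.44 (SE 0.28, edgeR adjusted p = 0.00023) at 8 DAA and by 1.68 (SE 0.29, edgeR adjusted p = 3.7e-05) at 16 DAA, and both calls held with each library left out.

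The vacuolar invertase *Sevir.7G191000* and the neutral invertase *Sevir.1G193400* did not pass between ecotypes at any stage. For *Sevir.7G191000* the log2 fold change of ME034V over A.10 lay between -0.39 (SE 0.26, at 50% SH) and 0.58 (SE 0.27, edgeR adjusted p = 0.12, at 16 DAA). Without replicate 3 of ME034V at 16 DAA, its highest library, the 16 DAA value was 0.08, and without replicate 1 it was 0.83 and passed (edgeR adjusted p = 0.015). For *Sevir.1G193400* the 4 values lay between -0.22 (SE 0.09, edgeR adjusted p = 0.099, at anthesis) and 0.13 (SE 0.09, at 16 DAA), and the anthesis value passed without replicate 4 of ME034V at anthesis (-0.30, edgeR adjusted p = 0.029). On TMM-scaled log2 CPM the A.10 libraries of this gene lay just above those of ME034V at 50% SH. At 16 DAA the ME034V libraries lay just above those of A.10.

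By count, 1 of the 4 genes was higher and 0 lower in ME034V at 50% SH, where 8.17% of 25264 loci tested were higher and 7.3% lower. At anthesis 0 were higher and 0 lower, against 7.12% and 7.22% of loci, with 1 of 4 at an unadjusted p under 0.05 and 0 called by DESeq2. At 8 DAA 2 were higher and 0 lower, against 11.9% and 9.85%. At 16 DAA 2 were higher and 0 lower, against 15.8% and 12.6%. The median log2 fold change of the 4 genes was -0.11, -0.20, 0.56 and 1.13 at the 4 stages in order, against 0.02, 0.01, -0.01 and 0.02 over all loci.

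**Figure D3:**
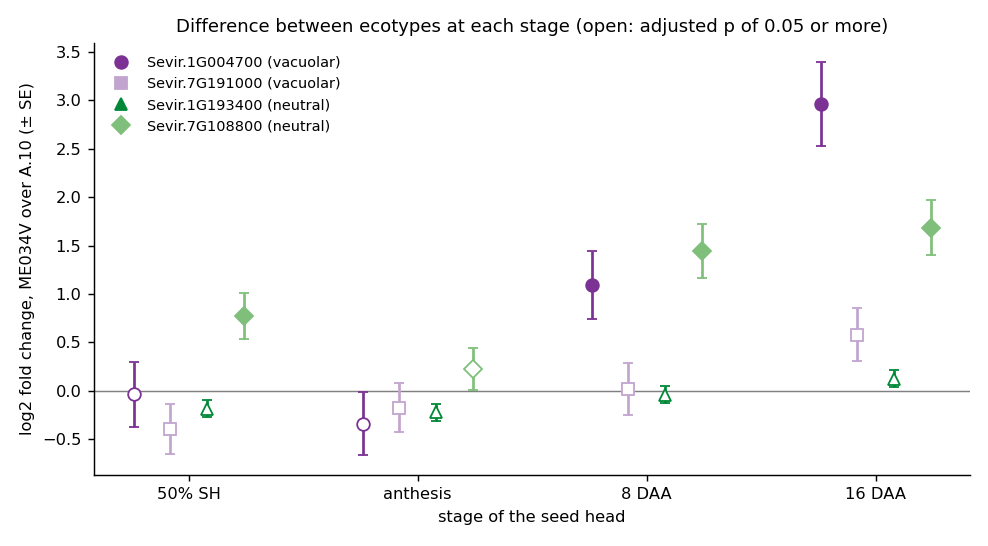
Log2 fold change of ME034V over A.10 with SE (vertical axis) at each stage (horizontal axis) for the 4 invertases, from the fit of all 32 libraries; open symbols have an edgeR adjusted p of 0.05 or more. *Sevir.1G004700* goes to 2.96 and *Sevir.7G108800* to 1.68 at 16 DAA, while *Sevir.1G193400* stays between -0.22 and 0.13.

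Whether the ecotypes differed in the change itself was tested by the step in ME034V minus the same step in A.10. For 8 DAA against anthesis the difference was 1.43 (SE 0.48, edgeR adjusted p = 0.12) for *Sevir.1G004700* and 1.22 (SE 0.35, edgeR adjusted p = 0.065) for *Sevir.7G108800*. Both differences are positive, which means a smaller fall in ME034V, but neither passed over all 25264 loci. Without replicate 1 of A.10 at 8 DAA both passed, at 2.14 (edgeR adjusted p = 0.0018) for *Sevir.1G004700* and 1.37 (edgeR adjusted p = 0.03) for *Sevir.7G108800*. *Sevir.7G108800* also passed without replicate 1 of A.10 at 50% SH and without replicate 3 of ME034V at 16 DAA (1.22 and 1.21, edgeR adjusted p = 0.047 and 0.045).

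For 16 DAA against 8 DAA the difference of *Sevir.1G004700* was 1.87 (SE 0.56, edgeR adjusted p = 0.18), and for anthesis against 50% SH it was -0.30 (SE 0.46, edgeR adjusted p = 1). Without replicate 1 of A.10 at 8 DAA, the first of these was 1.16 (edgeR adjusted p = 0.47). *Sevir.7G191000* and *Sevir.1G193400* had differences between -0.04 and 0.56 over the 3 steps. The highest, that of *Sevir.7G191000* for 16 against 8 DAA, was 0.056 without replicate 3 of ME034V at 16 DAA. For *Sevir.7G108800* the differences at these other steps were -0.55 (SE 0.32) for anthesis against 50% SH and 0.24 (SE 0.41) for 16 against 8 DAA, which was 0.038 without that library.

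Of the 4 genes, 0 passed in either direction at any of the 3 steps. The share of all loci that passed was small too, 0.0475% with a positive and 0.0712% with a negative difference for anthesis against 50% SH. It was 1.16% and 0.97% for 8 DAA against anthesis, and 0.0673% and 0.0712% for 16 against 8 DAA. The number of the 4 genes with an unadjusted p under 0.05 was 0, 2 and 1 at these steps, and DESeq2 called 0 at each.

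The order of the 4 genes by log2 FPKM differed between stages. *Sevir.1G193400* was first and *Sevir.1G004700* second at 50% SH in both ecotypes, by 0.44 in ME034V, where their ranges overlapped, and by 0.58 in A.10. At anthesis *Sevir.1G004700* was first, by 1.20 in ME034V and 1.34 in A.10, without overlap. After anthesis *Sevir.1G193400* was first again, and at 16 DAA in A.10 *Sevir.1G004700* stood below *Sevir.7G191000* too, by 1.13.

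*Sevir.7G108800* was last in all 8 groups. Of the 24 pairs of neighbours in these orders, 23 kept their order in 4 of 4 libraries and 20 did not overlap. The 4 pairs that overlapped were *Sevir.1G193400* over *Sevir.1G004700* in ME034V at 50% SH and at 8 DAA, and *Sevir.1G004700* over *Sevir.7G191000* in ME034V at 16 DAA and in A.10 at 8 DAA. CPM, which takes no account of length, gave the same order in 8 of 8 groups.

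In ME034V the vacuolar invertases made up 46.4% ± 6.97 of the 4 genes' summed FPKM at 50% SH, 70.1% ± 8.69 at anthesis, 43.4% ± 6.26 at 8 DAA and 31.9% ± 9.72 at 16 DAA (SD, n = 4 each). In A.10 their share was 45.8% ± 3.23 at 50% SH, 72.6% ± 1.42 at anthesis, 29.3% ± 10.2 at 8 DAA and 14.0% ± 1.66 at 16 DAA (SD, n = 4 each). At 16 DAA the shares were 19.3%, 40.3%, 38.8% and 29.2% in the ME034V libraries, against 11.6%, 14.7%, 15.4% and 14.2% in the A.10 libraries, with no overlap.

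Within the vacuolar class, *Sevir.7G191000* held 8.8% to 10.6% of the 4 genes' sum by group mean, and 5.42% to 17.2% over single libraries, with the widest spread in ME034V at 16 DAA (9.62% ± 5.23, SD, n = 4). *Sevir.1G004700* ranged from 4.5% in A.10 at 16 DAA to 63.6% in A.10 at anthesis. *Sevir.1G193400* had 84.6% in A.10 at 16 DAA and 25.2% in A.10 at anthesis. These shares describe balance and carry no test.

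Among all 19 invertases, *Sevir.1G004700* ranked first by mean FPKM at anthesis in both ecotypes and *Sevir.1G193400* in the other 6 groups. At 16 DAA *Sevir.1G004700* ranked 7 in ME034V and 16 in A.10. The vacuolar class as a whole had 8.35% ± 3.05 of the summed invertase FPKM in ME034V and 2.87% ± 0.27 in A.10 at 16 DAA, against 38.2% ± 7.82 in ME034V and 42.7% ± 2.26 in A.10 at anthesis (SD, n = 4 each). The cell wall invertases, which split sucrose outside the cell, had 45.1% ± 5.55 in ME034V and 49.4% ± 1.40 in A.10 at 16 DAA, against 20.8% ± 2.61 in ME034V and 18.2% ± 1.45 in A.10 at anthesis. The share of the 8 neutral invertases was 58.7% ± 5.79 in ME034V and 59.3% ± 2.02 in A.10 at 50% SH, and 39.2% to 47.7% by group mean at the later stages.

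**Figure D4:**
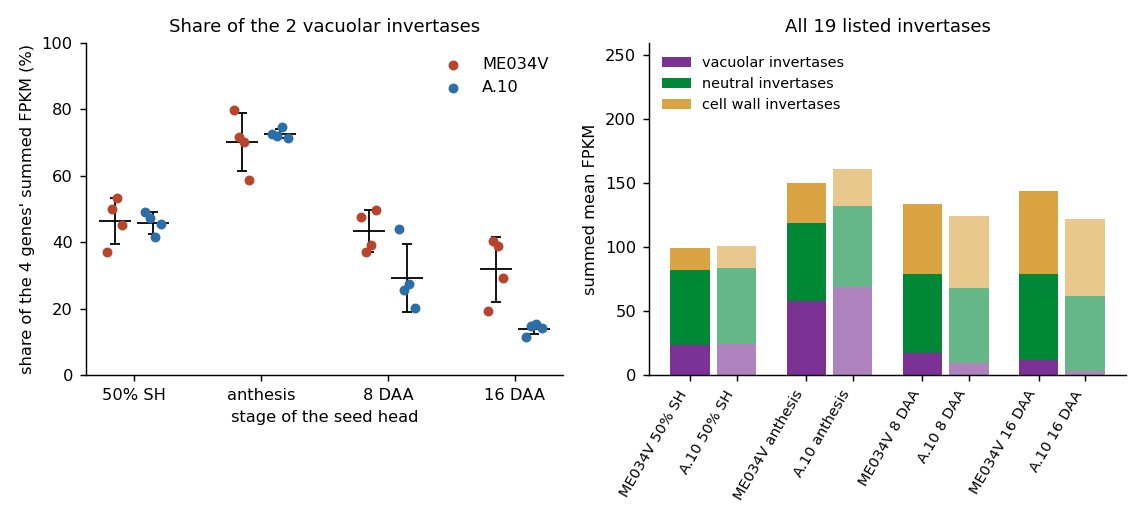
Left, share (%) of the 2 vacuolar invertases in the summed FPKM of the 4 genes by stage in ME034V (red) and A.10 (blue); points are libraries, black bars the mean and SD of 4. Right, summed mean FPKM of the 19 listed invertases by class, with A.10 in paler shades beside ME034V; the vacuolar part is largest at anthesis and smallest in A.10 at 16 DAA, where it is 2.87% of the sum.

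The 6 neutral invertases that are not among the 4 genes moved in both directions. For 8 DAA against anthesis, 1 rose and 2 fell in ME034V and 2 rose and 2 fell in A.10, against 22.2% of loci rising and 24.4% falling in ME034V and 32.2% and 30.4% in A.10, so that these shares are near the background. Their median log2 fold changes were 0.17 in ME034V and -0.10 in A.10, against 0.00 and 0.04 over all loci tested. *Sevir.1G182000*, the most abundant of them, rose by 0.35 (SE 0.10, edgeR adjusted p = 0.01) in ME034V and by 0.38 (SE 0.08, edgeR adjusted p = 0.00032) in A.10. *Sevir.8G054000*, with the largest A.10 change, changed by -1.15 (SE 0.20, edgeR adjusted p = 0.00016) in ME034V and by -1.24 (SE 0.14, edgeR adjusted p = 6.5e-07) in A.10. At 16 DAA 1 of these 6 was higher and 1 lower in ME034V than in A.10, against 15.8% and 12.6% of loci.

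Of the 9 cell wall invertases, 4 rose and 2 fell in ME034V and 5 rose and 3 fell in A.10 for 8 DAA against anthesis, where 22.2% of loci rose and 24.4% fell in ME034V and 32.2% rose and 30.4% fell in A.10. Their median log2 fold changes were 1.03 in ME034V and 0.89 in A.10. *Sevir.3G029300*, the one with the highest mean CPM, rose by 1.03 (SE 0.15, edgeR adjusted p = 3.4e-05) in ME034V and by 1.07 (SE 0.12, edgeR adjusted p = 4.6e-07) in A.10. *Sevir.7G099100*, with the largest A.10 change, had 54.4 CPM at 8 DAA against 0.097 CPM at anthesis in ME034V. In A.10 it had 53.3 CPM at 8 DAA against 0.221 CPM at anthesis, and with so few reads at anthesis no fold is given. This locus passed the filter on CPM only through its late libraries, so no p-value is given for it. It is among the loci counted above as rising in both ecotypes and enters both medians. Between ecotypes at 16 DAA, 2 of the 9 were higher and 2 lower in ME034V, against 15.8% and 12.6% of loci.

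**Figure D5:**
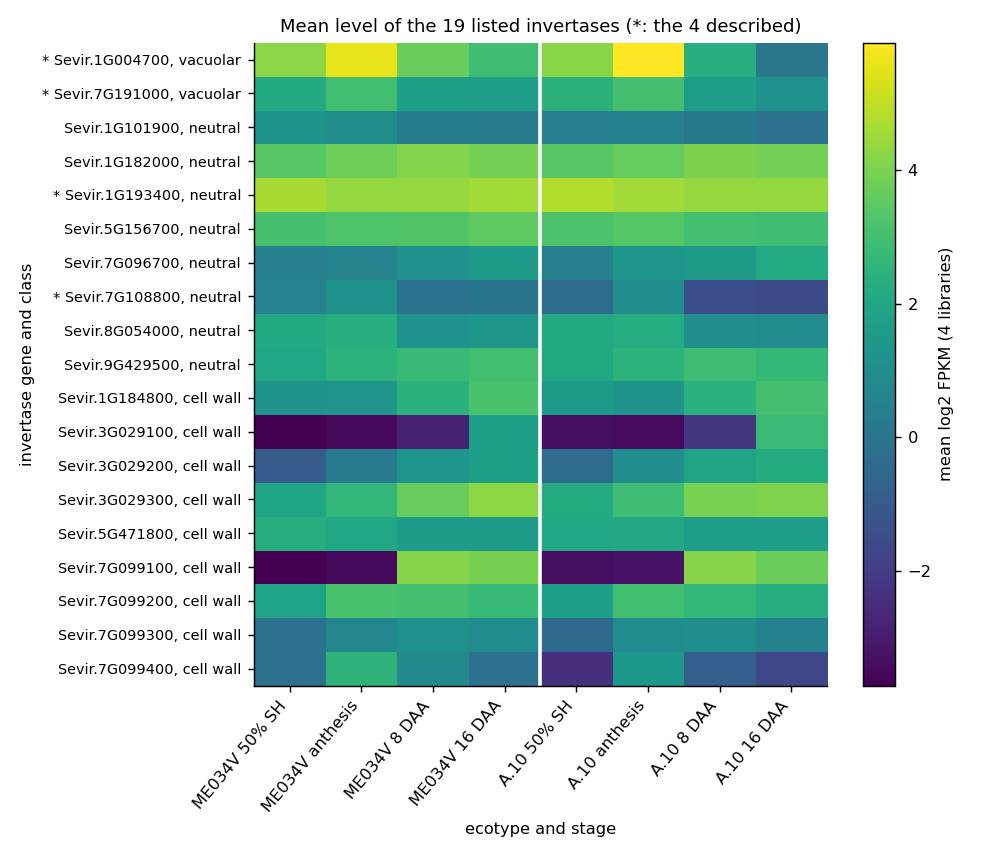
Mean log2 FPKM over 4 libraries (colour) of the 19 listed invertases (rows, asterisks mark the 4 described) in ME034V (left) and A.10 (right) at each stage. *Sevir.1G004700* has the highest cells at anthesis (5.59 in ME034V, 5.91 in A.10) and 0.09 in A.10 at 16 DAA, whereas *Sevir.1G193400* varies from 4.39 to 4.79.

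Of the 4 sucrose synthase loci, 1 rose and 1 fell in ME034V and 2 rose and 1 fell in A.10 for 8 DAA against anthesis, near the background of 22.2% and 24.4% in ME034V and 32.2% and 30.4% in A.10. *Sevir.9G377500*, the most abundant, changed by -0.56 (SE 0.22, edgeR adjusted p = 0.044) in ME034V and by -0.93 (SE 0.13, edgeR adjusted p = 9.2e-06) in A.10. *Sevir.9G414900*, with the largest A.10 change, rose by 1.49 (SE 0.13, edgeR adjusted p = 8.6e-08) in ME034V and by 1.67 (SE 0.11, edgeR adjusted p = 1.1e-09) in A.10. Between ecotypes at 16 DAA, 1 of the 4 was higher and 2 lower in ME034V, against 15.8% and 12.6% of loci.

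Among the enzymes that make sucrose, 1 of 5 sucrose phosphate synthases rose and 1 fell in ME034V at this step, and 2 rose and 2 fell in A.10, near the same background. *Sevir.6G120400*, the most abundant, rose by 0.57 (SE 0.09, edgeR adjusted p = 4.1e-05) in ME034V and by 0.60 (SE 0.06, edgeR adjusted p = 1.3e-07) in A.10. *Sevir.4G301100*, a gene of low level, changed by -2.92 (SE 0.27, edgeR adjusted p = 1.7e-07) in ME034V and by -3.19 (SE 0.22, edgeR adjusted p = 1.3e-09) in A.10.

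Of 3 sucrose phosphatases, which remove the phosphate in the last step of sucrose synthesis, 2 rose and 0 fell in each ecotype, where 22.2% of loci rose in ME034V and 32.2% in A.10. *Sevir.3G060400* had the largest A.10 change and rose by 1.01 (SE 0.24, edgeR adjusted p = 0.0026) in ME034V and by 1.25 (SE 0.18, edgeR adjusted p = 9.5e-06) in A.10. *Sevir.2G396500*, the most abundant, was at -0.11 (SE 0.11, edgeR adjusted p = 0.45) in ME034V and -0.07 (SE 0.08, edgeR adjusted p = 0.5) in A.10. It was higher in ME034V than in A.10 at 16 DAA (0.36, SE 0.10, edgeR adjusted p = 0.0093).

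*Sevir.1G004700*, *Sevir.7G191000* and *Sevir.7G108800* resembled each other in pattern over the 32 libraries. On the same TMM-scaled log2 CPM the Pearson r was 0.863 between *Sevir.1G004700* and *Sevir.7G108800*, 0.798 between *Sevir.1G004700* and *Sevir.7G191000*, and 0.734 between *Sevir.7G191000* and *Sevir.7G108800*. *Sevir.1G193400* had an r of 0.169 to 0.208 with the other genes. That r pools ecotypes in which its course differed, and it was not taken within each ecotype. From 50% SH to 16 DAA, the stage means of *Sevir.1G193400* were 4.79, 4.57, 4.39 and 4.40 log2 FPKM in A.10. In ME034V they were 4.66, 4.40, 4.39 and 4.58. The points are libraries that share stages and normalization, so the values of r describe likeness and are given without a p-value.

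The loci most like *Sevir.1G004700* among the 25264 tested were *Sevir.4G177800* (r = 0.955) and *Sevir.3G209800* (r = 0.953). In the list of sugar genes they were the UDP-glucose pyrophosphorylase *Sevir.1G112300* (r = 0.920) and the glucosidase *Sevir.2G265100* (r = 0.893). For *Sevir.7G108800* they were *Sevir.4G099500* (r = 0.936) and *Sevir.5G310100* (r = 0.935), and in the list the glucosidase *Sevir.9G496500* (r = 0.888) and *Sevir.1G004700* itself.

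For *Sevir.7G191000* the nearest loci were *Sevir.8G066800* (r = 0.920) and *Sevir.9G161100* (r = 0.911), and in the list SvSWEET2b (*Sevir.5G287700*, r = 0.845), of a family of sugar channels, and the hexose transporter *Sevir.9G273100* (r = 0.831). For *Sevir.1G193400* they were *Sevir.8G217900* (r = 0.873) and *Sevir.9G404300* (r = 0.838), and in the list the glucosidase *Sevir.2G427300* (r = 0.781) and the hexose transporter *Sevir.3G145000* (r = 0.738). Over the 16 libraries of an ecotype, these 16 values of r ran between 0.594 (*Sevir.3G145000* with *Sevir.1G193400*) and 0.900 (*Sevir.4G177800* with *Sevir.1G004700*) in ME034V, and between 0.701 (*Sevir.2G427300* with *Sevir.1G193400*) and 0.973 in A.10. For *Sevir.1G112300* with *Sevir.1G004700*, r was 0.738 in ME034V and 0.971 in A.10. The files pair none of the loci outside the list with a name.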

How the data were processed

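Poly(A)-enriched RNA of 32 seed head libraries was sequenced as paired reads, trimmed with Trim Galore and mapped with Subjunc (Subread 1.6.2), keeping unique mappings, by the study's methods and the submitters' processing notes. For each of 38334 loci in release v2.1 of the *S. viridis* annotation, the deposited counts give whole fragments, which the authors counted with featureCounts and without strand. The authors used edgeR to turn TMM-scaled counts into log2 FPKM and deposited a table for each ecotype, in which loci with few fragments lie above FPKM taken straight from the counts. The length column of the count files spans the whole locus with introns, so FPKM on exon length could not be computed, and levels of genes with long introns are understated. Since the tables were normalized per ecotype, ecotypes were compared on counts. Reads of both ecotypes were mapped to the same reference. The part that sequence or copy number differences between ecotypes had in the counts was not tested.

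The main test was the quasi-likelihood test of edgeR 4.0.16 (TMM, R 4.3.3), run where CPM exceeded 1 in 3 or more libraries, in 16 libraries per ecotype for stages and in all 32 for ecotypes. Each SE was taken as the absolute log2 fold change divided by the root of F. P-values set a difference between groups against the spread between pools of plants within a group. Alternatives were DESeq2 1.42.0, its size factors, no filter, a stricter filter (CPM over 5 in 4 or more libraries), limma 3.58.1 on log2 FPKM and on log2(FPKM + 1), a replicate block, all 32 libraries for stages, and each library left out. The edgeR fits were tested on simulated counts, for a single comparison in each. Genes named besides the 4 are, per list, the locus with the highest mean CPM and that with the largest change for 8 DAA against anthesis in A.10, and per gene the 2 loci nearest by Pearson r overall and in the sugar list. Loci with the largest change were picked by that A.10 value, so their A.10 p-values at this step are no independent tests. The genes and lists were chosen with earlier results of these data known. The RefSeq table at hand is of another assembly and pairs none of the locus identifiers, so it was not used.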

Additional observations from a re-analysis of the deposited data

Results flagged for a closer look

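Of 40 groups of 4 libraries examined (log2 FPKM of each gene by stage and ecotype, and the share of the vacuolar invertases), 4 held a library whose gap to its nearest neighbour was past Dixon's critical share of the group's range for 4 samples. Chance flags about 1 in 20 groups. *Sevir.1G004700* in A.10 at anthesis had 6.10 in replicate 3, above the 3 other libraries (gap over range 0.930). *Sevir.7G191000* in ME034V at anthesis had 2.86 in replicate 4, below the others (0.872), though its whole range was narrow. *Sevir.7G108800* in ME034V had 0.18 in replicate 1 at 50% SH, below the others (0.894), and 0.50 in replicate 3 at 16 DAA, above the others (0.865), in the library that agreed least with its group. None of the 12 tests of a difference between ecotypes in a step passed.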

How the results depend on the processing

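Of 1408 log2 fold changes with 1 library left out, 1355 kept their direction and side of the threshold, as did 380 of 396 under the other settings, over 60 results. The libraries left out include those of groups not compared. Such libraries enter a result only through scaling and the shared spread, so the first of these counts overstates stability. Each other setting was run on 60 results, except limma and the fit of all 32 libraries (32 results). FPKM on exon length was not run, since the files give no exon length. Little pairing by replicate number was seen: same-numbered libraries deviated together by a median r of 0.01 in ME034V and 0.03 in A.10, with 3 of 24 pairs over 0.1 in each. Between libraries of different numbers the median r was 0.004 in ME034V and 0.001 in A.10, with 11 of 72 and 10 of 72 pairs over 0.1. A weak r over all loci cannot show that no pairing or batch was shared. With a replicate block, *Sevir.7G191000* passed for anthesis against 50% SH in ME034V (0.88) and *Sevir.7G108800* for the difference in change at 8 DAA (1.30), and no other call moved.

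DESeq2 also called *Sevir.7G191000* for anthesis against 50% SH in ME034V (0.85) and for 16 against 8 DAA in A.10 (-0.45). With all 32 libraries, calls were gained in ME034V for anthesis against 50% SH (*Sevir.7G191000* 0.84, *Sevir.1G193400* -0.25) and for *Sevir.7G108800* at 16 DAA against 50% SH (-0.54), and lost in A.10 for anthesis against 50% SH (*Sevir.7G191000* 0.62, *Sevir.1G193400* -0.21) and for *Sevir.1G193400* at 8 DAA against anthesis (-0.20). On log2(FPKM + 1), limma kept every call, but the called changes of *Sevir.7G108800* between stages shrank by over 1.5 times, to as little as -0.42 for 16 DAA against 50% SH in A.10. Limma on log2 FPKM lost *Sevir.7G108800* for anthesis against 50% SH in ME034V (0.67). Values near 0 changed sign: *Sevir.1G193400* at 8 DAA against anthesis in ME034V under DESeq2 (0.010) and its size factors (0.012), and at 16 against 8 DAA in A.10 (-0.0024 and -0.0018), and *Sevir.7G191000* at 16 against 8 DAA in ME034V under limma (-0.026). The causes were not tested.

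With each library left out, ranges that include a changed call or sign were these. In ME034V they were 0.71 to 0.95 (*Sevir.7G191000*) and 0.63 to 0.92 (*Sevir.7G108800*) for anthesis against 50% SH, -0.11 to 0.065 (*Sevir.1G193400*) for 8 DAA against anthesis, -0.38 to 0.37 (*Sevir.7G191000*) and -0.12 to 0.27 (*Sevir.7G108800*) for 16 against 8 DAA, and -0.78 to -0.031 (*Sevir.7G191000*) and -0.73 to -0.45 (*Sevir.7G108800*) for 16 DAA against 50% SH. In A.10, for 16 against 8 DAA, they were -0.55 to -0.33 (*Sevir.7G191000*) and -0.0092 to 0.045 (*Sevir.1G193400*). For ME034V over A.10 they were -0.16 to 0.086 (*Sevir.1G004700*) and 0.67 to 1.08 (*Sevir.7G108800*) at 50% SH, -0.30 to -0.12 (*Sevir.1G193400*) at anthesis, 0.82 to 1.80 (*Sevir.1G004700*), -0.14 to 0.19 (*Sevir.7G191000*) and -0.096 to 0.037 (*Sevir.1G193400*) at 8 DAA, and 0.077 to 0.83 (*Sevir.7G191000*) at 16 DAA. For the difference in change they were -0.11 to 0.061 (*Sevir.1G193400*) for anthesis against 50% SH, and 1.16 to 2.14 (*Sevir.1G004700*) and 1.02 to 1.37 (*Sevir.7G108800*) for 8 DAA against anthesis.

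Counts over all loci that moved by over 1.5 times were those of 16 against 8 DAA in ME034V (1619 loci, 2668 with all 32 libraries, 828 to 1831 with each library left out) and those of the difference in change: 30 loci for anthesis against 50% SH (86 by DESeq2, 8 to 44 with each library left out), 537 for 8 DAA against anthesis (301 to 1472, the highest without replicate 1 of A.10 at 8 DAA) and 35 for 16 against 8 DAA (166 by DESeq2, 15 to 259, the highest without replicate 3 of ME034V at 16 DAA). As a share of counts in place of FPKM, the vacuolar share in A.10 at 16 DAA was 15.9%. Depth limits *Sevir.7G108800* most, with as few as 6 reads in a library.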
